A study of Saccharomyces cerevisiae YPS1009 with 8 samples.

Results

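The start codon and the first 20 codons of yeast genes were examined by ribosome profiling, in which the stretch of mRNA covered by a ribosome is sequenced as a short footprint. Each gene had 1 row of read counts by nucleotide, beginning 72 nt before its ATG. A footprint was placed by its 5′ end, and the P site (the ribosomal site that holds the growing peptide) lay 12 nt into the read. The window therefore held reads whose 5′ ends lay between -12 and +47 nt of the ATG, which put codons 1 to 20 in the P site. A gene entered if its row had 100 or more reads over the 8 libraries, which left 5299 of 6536 rows. The quantity described is the window share, the percent of a gene's reads that fell in its window. The members were chosen on read counts only, but the read total includes the window itself.

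Translation starts when a small ribosomal subunit carrying the initiator tRNA recognises the start codon and the large subunit joins. The ribosome then elongates, and while it reads the first codons the residues it has joined are still inside the exit tunnel of the large subunit. Footprint density at the start codon and in the early codons is known to depend on how often ribosomes start, how fast they leave and whether they complete the gene.

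All libraries came from haploid derivatives of YPS1009, a wild oak-soil strain of Saccharomyces cerevisiae, grown at 30 °C in the rich medium YPD from an OD600 of 0.05. The Chr12 aneuploid carried 1 additional copy of chromosome XII, an engineered duplication that the study's methods describe as checked from time to time on selective plates, and the euploid carried none. Cells were collected on filters and frozen at once, with no sorting of growing from resting cells described. Each strain was collected at day 4, when the culture had entered stationary phase, and in log phase after 3 generations, and each of the 4 groups (Chr12 day 4, euploid day 4, Chr12 log phase and euploid log phase) had 2 replicates. The study asked how aneuploidy affects translation quality control as cells enter quiescence. In the values given here, that of replicate 1 precedes that of replicate 2 within each group.

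Reads in the rows numbered between 211302 and 6215498 per library, and the lowest total was in a euploid day 4 library, as was the highest. Chromosome XII rows took 12.5% and 13.7% of reads in Chr12 day 4 cells, 7.92% and 7.43% in euploid day 4 cells, 19.5% and 18.7% in Chr12 log-phase cells, and 13% and 12.4% in euploid log-phase cells, so both Chr12 groups lay above the euploid libraries of the same phase. The stress gene HSP12 had 1576 to 12229 rpm (scaled to each library's row reads) at day 4 and 2.97 to 12.1 rpm in log phase. Between 54% and 70.7% of gene-body reads lay in the main reading frame. The replicates differed in how reads were spread: of window positions with any read, 69.5% and 68.1% held a single read in replicate 1 at day 4, against 15.8% and 23.8% in replicate 2 at day 4. A share within a gene does not depend on how many footprints a cell held, and in bulk cultures fewer translating cells and fewer footprints per cell cannot be told apart.

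Most genes had few of their reads in the window. The window share over the 8 libraries summed had a median of 2.68%, with 10th and 90th percentiles of 0.424% and 12.3%, and 152 members had no window read. Another 1285 members had 1 to 9 window reads. At the other end, 702 members had at least 10% of their reads in the window, 29 had at least 50% and 8 had at least 90%. Just inside the limit of 100 reads were RRT12, HED1 and YGR050C, with 0, 3 and 2 window reads. Just outside it, with 99 reads each, were DOC1, PTH1 and MNT4, with 6, 6 and 0.

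The window share followed gene length, since 20 codons are a larger part of a short gene. Among members with intact gene models (rows of whole codons with no long uncovered stretch), the median share was 19.7% for 149 genes under 100 codons, 8.20% from 100 to under 200 codons, 4.12% from 200 to under 400, 2.02% from 400 to under 800, and 1.06% for 805 genes of 800 codons or more. Read density per codon varied less over the same classes. The density ratio, reads per codon in codons 1 to 20 over reads per codon in the gene body (20 codons left out at each end), had medians of 0.628, 0.604, 0.558 and 0.587 in the classes from 100 codons upward.

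RPL41A and RPL41B, which encode the smallest protein of the large ribosomal subunit in 25 codons each, held the most window reads. For RPL41B the window share was 98.7% and 93.9% in Chr12 day 4 cells, 93.2% and 92.7% in euploid day 4 cells, 98% and 98.2% in Chr12 log-phase cells, and 98.1% and 97.6% in euploid log-phase cells. The paralog RPL41A was 99.4% and 95.5% in Chr12 day 4 cells, 96.4% and 94.7% in euploid day 4 cells, 98.4% and 98.4% in Chr12 log-phase cells, and 98.7% and 98% in euploid log-phase cells. Nearly the whole coding sequence of both genes lies in the window, and all 8 libraries were above 92%. Their combined part of all window reads was 11.2% and 11.5% in Chr12 day 4 cells, 7.5% and 9.84% in euploid day 4 cells, 33.8% and 38.1% in Chr12 log-phase cells, and 40.2% and 38% in euploid log-phase cells, so every day 4 library lay below every log-phase library. Without these 2 genes the pooled window share was 7.53% and 4.38% in Chr12 day 4 cells, 8.31% and 4.9% in euploid day 4 cells, 6.58% and 4.69% in Chr12 log-phase cells, and 6.93% and 5.11% in euploid log-phase cells, and in each group replicate 1 lay above replicate 2.

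Some other genes with many window reads also had a share that was large for their length. RPP2A, an acidic protein of the ribosomal stalk with 106 codons, had window shares of 22.9% and 15.4% in Chr12 day 4 cells, 33.3% and 25.7% in euploid day 4 cells, 64% and 38% in Chr12 log-phase cells, and 60.2% and 40.5% in euploid log-phase cells. Its 4 day 4 values all lay below its 4 log-phase values. The genes for translation elongation factor eEF1A, TEF1 and a second copy listed as YPR080W_1, share nearly all of their sequence, so reads between them could not be assigned with certainty. The window share of TEF1 was 14.2% and 6.16% in Chr12 day 4 cells, 10.5% and 11.4% in euploid day 4 cells, 11.8% and 12.2% in Chr12 log-phase cells, and 11.9% and 13.5% in euploid log-phase cells, and only the second Chr12 day 4 library stood apart, on the low side.

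Glycolytic enzymes and stress proteins showed how far the replicates could differ. PDC1, the main pyruvate decarboxylase, had window shares of 26% and 4.17% in Chr12 day 4 cells, 17% and 4.61% in euploid day 4 cells, 12.6% and 4.05% in Chr12 log-phase cells, and 12.2% and 3.55% in euploid log-phase cells, so replicate 1 was above replicate 2 in every group. FBA1, the aldolase, had 21.6% and 4.21% in Chr12 day 4 cells, 12.8% and 8.12% in euploid day 4 cells, 6.46% and 7.61% in Chr12 log-phase cells, and 9.61% and 8.97% in euploid log-phase cells. The hydrophilin SIP18, a small protein made in starved cells, had 43% and 15.6% in Chr12 day 4 cells, 47.5% and 17.2% in euploid day 4 cells, 44.4% and 53.2% in Chr12 log-phase cells, and 62.5% and 48.9% in euploid log-phase cells, and its log-phase values rest on 4 to 66 window reads. HSP12, a membrane-binding stress protein, had 68.1% and 30.4% in Chr12 day 4 cells, 33.9% and 28.7% in euploid day 4 cells, 28.6% and 20.8% in Chr12 log-phase cells, and 53.9% and 25% in euploid log-phase cells, with 2 to 7 window reads in each log-phase library.

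**Figure D1:**
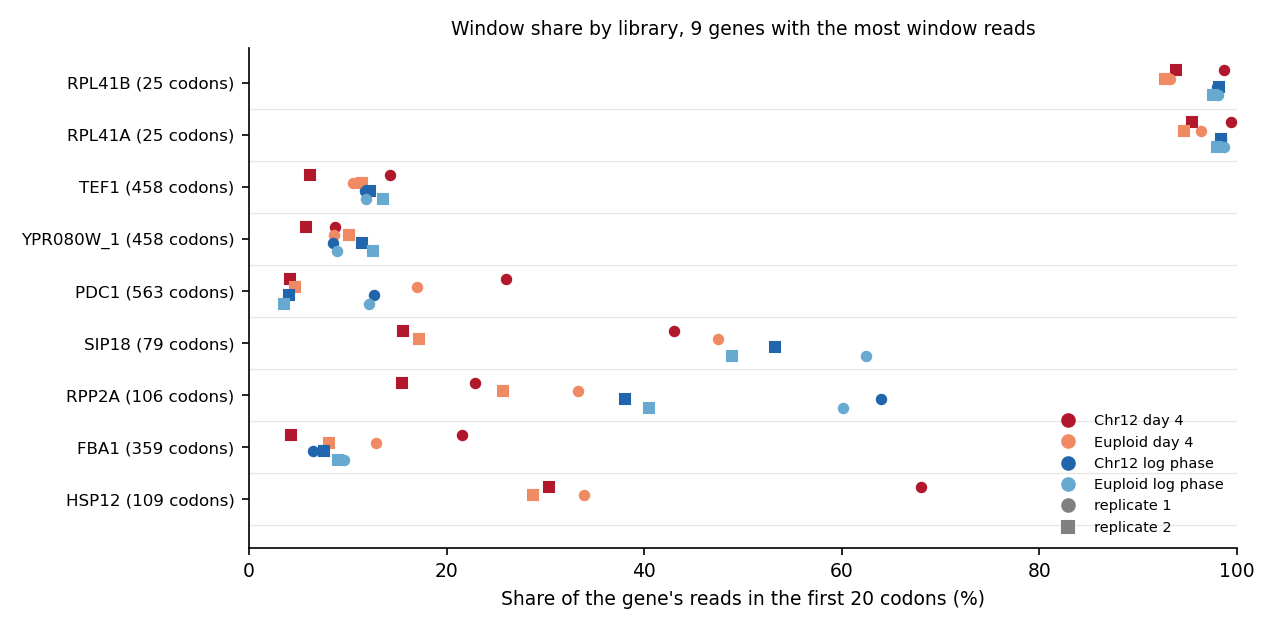
Window share (percent of the gene's reads with the P site in codons 1 to 20) in each library with at least 10 window reads, for the 9 genes with the most window reads. Circles are replicate 1, squares replicate 2, and colours the 4 groups. RPL41A and RPL41B lie above 92% in every library, and for PDC1 replicate 1 lies to the right of replicate 2 in every group.

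The 8 genes with 90% or more of their reads in the window included reading frames whose reads sat mostly at 1 nucleotide. In YEL032C-A, of 53 codons, 93.1% of window reads were at 1 nucleotide of codon 2, and the window held 70 of 74 and 0 of 0 in Chr12 day 4 cells, 160 of 161 and 0 of 0 in euploid day 4 cells, 159 of 163 and 0 of 0 in Chr12 log-phase cells, and 102 of 105 and 0 of 0 in euploid log-phase cells. Reads were in replicate 1 libraries only. The reverse held for MTC3, which was not among the 8, with a window share of 80.6% over the 8 libraries. Its codon 2 held the position with 96.2% of window reads, and its window held 0 of 2 and 4 of 19 in Chr12 day 4 cells, 0 of 2 and 6 of 77 in euploid day 4 cells, 2 of 6 and 184 of 190 in Chr12 log-phase cells, and 2 of 12 and 276 of 280 in euploid log-phase cells, with most reads in the replicate 2 log-phase libraries. JIP3, with a window share of 98% over the 8 libraries, had 93.1% of its window reads at 1 nucleotide of codon 18. Of 3862 members with 10 or more window reads, 410 had over 50% of them at 1 nucleotide, and 64 had over 50% in stretches also counted in another row.

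The window of the median gene was read more thinly than its gene body, by an amount that moved with how reads were counted. Among 320 genes with at least 50 reads in every library, whole codons and 100 codons or more, the median density ratio over the libraries had a median of 0.537, with 10th and 90th percentiles of 0.0784 and 1.70. With at most 1 read counted per position the median over genes was nearer 1, between 0.618 and 1.09 in the 8 libraries, and pooled over the 320 genes the ratio lay between 0.664 and 1.56 and was above 1 in 5 of the 8 libraries. In 95 genes the ratio was below 1 in all 8 libraries, in 10 it was above 1 in all, and in 1 it was above 2 in all. The highest median belonged to ATG5, which joins Atg12 in the conjugate needed to build autophagosomes, with ratios of 24.9 and 0.185 in Chr12 day 4 cells, 61.2 and 0.26 in euploid day 4 cells, 197 and 319 in Chr12 log-phase cells, and 207 and 140 in euploid log-phase cells. Every log-phase library and replicate 1 at day 4 were high, and replicate 2 at day 4 was below 1 in both strains. Of the window reads of ATG5, 99.8% lay at 1 nucleotide of codon 20.

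SLA1, an actin-binding protein of endocytosis, followed with ratios of 5.02 and 0 in Chr12 day 4 cells, 8.97 and 1.05 in euploid day 4 cells, 17.1 and 11.7 in Chr12 log-phase cells, and 18.5 and 11.6 in euploid log-phase cells, which were below 2 in both replicate 2 libraries of day 4. PTR2, the di- and tripeptide transporter, had 0.969 and 2.59 in Chr12 day 4 cells, 17.6 and 4.75 in euploid day 4 cells, 7.32 and 27.8 in Chr12 log-phase cells, and 9.88 and 21.6 in euploid log-phase cells. RPP2A had a median of 4.54. RPS1A, a 40S protein, was the gene above 2 in all libraries, between 2.53 and 7.89. The lowest medians were 0, for long genes such as ESC1 and NAB6 and the nuclear pore gene NUP188, the helicase gene SEN1 and the aminophospholipid flippase gene DNF2. DNF2 had 3 window reads over the 8 libraries.

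Gene groups chosen by what their first residues or products do were compared by density, as a description. Over the 8 libraries summed, the median density ratio was 0.593 for 48 genes with a cleaved signal peptide, 0.473 for 62 with a mitochondrial presequence, and 0.794 for 33 multi-pass transporters that lack a cleaved signal. It was 0.738 for 41 translation factors, 0.767 for 21 glycolytic genes, 0.571 for 25 stress and stationary-phase genes, 0.388 for 60 cytosolic ribosomal protein genes and 0.611 for 401 chromosome XII genes, against 0.582 for all 4715 rows with a value. The quartiles of each list overlapped those of all rows, which were 0.314 and 1.07. The lower quartile of the ribosomal protein genes was 0.0496. Rows with a long uncovered stretch were kept in these lists, so not all had intact gene models.

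Read by codon, footprints were densest at the start codon in each of the 8 libraries. With each codon scaled to the mean of the gene body and averaged over 320 genes (5% trimmed at each end), codon 1 was at 1.83 and 1.14 in Chr12 day 4 cells, 0.699 and 0.788 in euploid day 4 cells, 0.8 and 0.606 in Chr12 log-phase cells, and 0.82 and 0.556 in euploid log-phase cells. Replicate 1 and replicate 2 of Chr12 at day 4 were the highest, and the other libraries lay below the gene-body level of 1. At codon 6 replicate 1 was above replicate 2 in 3 of 4 groups, with 0.696 and 0.228 in Chr12 day 4 cells, 0.319 and 0.379 in euploid day 4 cells, 0.734 and 0.223 in Chr12 log-phase cells, and 0.802 and 0.19 in euploid log-phase cells. From codon 7 to codon 20 the trimmed means lay between 0.12 and 0.604.

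**Figure D2:**
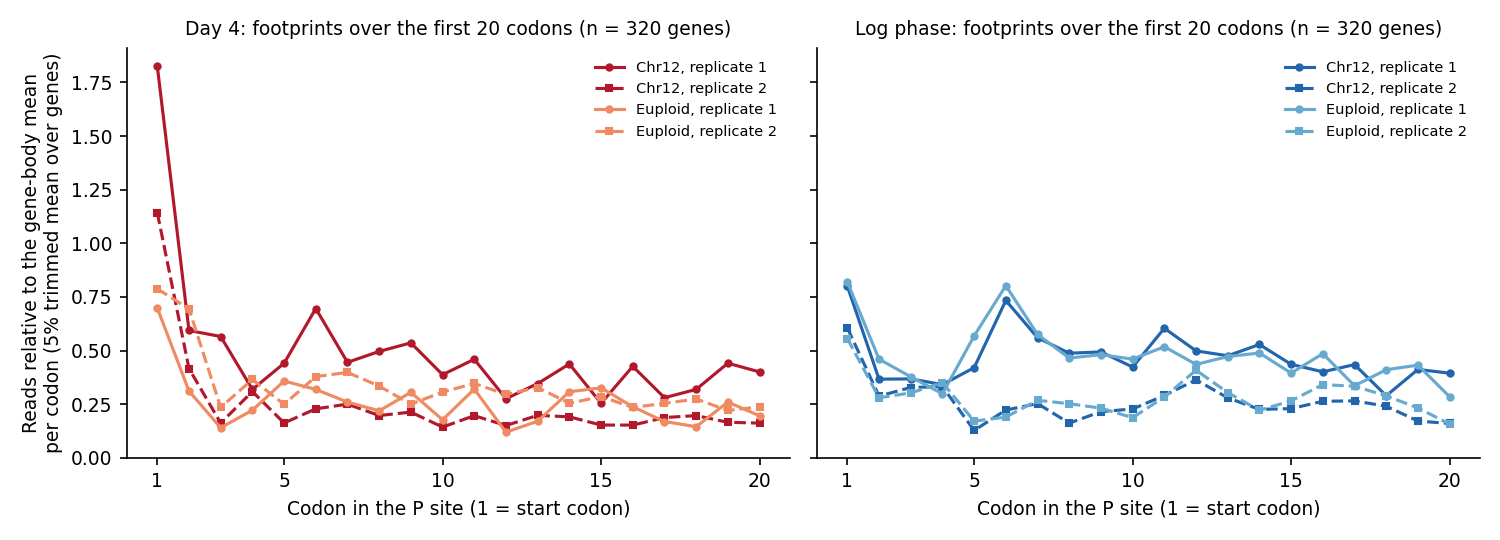
Reads at each of the first 20 codons relative to the gene-body mean per codon (5% trimmed mean over 320 genes), with day 4 at left and log phase at right. Solid lines with circles are replicate 1 and dashed lines with squares replicate 2. At codon 1 both Chr12 day 4 libraries exceed the gene-body level of 1, at 1.83 and 1.14, and at codon 6 replicate 1 lies above replicate 2 in 3 of 4 groups.

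Single genes had their own positions of high occupancy in the window. SSM4, an ubiquitin ligase of the endoplasmic reticulum, had the highest median over libraries of any position from codon 2 to codon 16, at codon 10, on 0 to 26 reads a library. It had occupancies relative to the gene body of 14.1 and 15.9 in Chr12 day 4 cells, 0 and 5.11 in euploid day 4 cells, 104 and 35.9 in Chr12 log-phase cells, and 95.9 and 46.8 in euploid log-phase cells. In the replicate 1 log-phase libraries SSM4 had more reads at codon 9 than at codon 10, with 49 against 26 in Chr12 cells and 54 against 20 in euploid cells. In the same range of codons RPS1A was highest at codon 6, with 9.78 and 7.25 in Chr12 day 4 cells, 23.1 and 43.8 in euploid day 4 cells, 15.8 and 27.7 in Chr12 log-phase cells, and 18.8 and 21.1 in euploid log-phase cells. For RPS2, a 40S protein, codon 14 had 7.45 and 4.05 in Chr12 day 4 cells, 17.6 and 15.1 in euploid day 4 cells, 25.5 and 22.8 in Chr12 log-phase cells, and 26.7 and 21.7 in euploid log-phase cells. All 8 libraries were above the gene body in RPS1A and RPS2, and the lowest value of each was in the second Chr12 day 4 library.

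Within codons 2 to 16 and by the median over libraries, RPL9B was highest at codon 14, the ubiquitin shuttle factor DSK2 at codon 15, PTR2 at codon 9 and TEF1 at codon 7, with median occupancies of 19.4, 19.2, 16.2 and 15.2. PTR2 had more reads at codon 20 than at codon 9 in 7 of 8 libraries, with 0 and 12 in Chr12 day 4 cells, 9 and 52 in euploid day 4 cells, 33 and 25 in Chr12 log-phase cells, and 93 and 73 in euploid log-phase cells. DSK2 had more reads at codon 14 than at codon 15 in both replicate 2 log-phase libraries, with 223 against 45 in Chr12 cells and 141 against 44 in euploid cells. In the same 2 libraries TEF1 had more reads at codon 6 than at codon 7, with 2616 against 987 in Chr12 cells and 2204 against 1042 in euploid cells. RNR2, a subunit of ribonucleotide reductase, differed by replicate at codon 6, with 41.8 and 0.287 in Chr12 day 4 cells, 32.5 and 0.317 in euploid day 4 cells, 45.5 and 2.43 in Chr12 log-phase cells, and 37.3 and 1.43 in euploid log-phase cells. Every replicate 1 library exceeded 32 and every replicate 2 library was below 2.5. In replicate 2 at day 4, RNR2 had more reads at codon 7 than at codon 6, with 61 against 5 in Chr12 cells and 1087 against 24 in euploid cells.

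The position of the highest codon was more alike between strains of the same replicate number than between replicates of 1 strain. Among 1690 members with at least 50 window reads, the highest codon held a median of 27.8% of window reads and over 50% of them in 211. It was codon 1 in 279 members (16.5%), against 3.08% to 5.98% for each other codon. In log phase the highest codon was the same in Chr12 and euploid for 383 of 584 members in replicate 1 (65.6%) and 298 of 413 in replicate 2 (72.2%). Between the 2 log-phase replicates it was the same for 139 of 443 members in Chr12 cells (31.4%) and 135 of 402 in euploid cells (33.6%). At day 4 the strains shared it for 38 of 75 members in replicate 1 (50.7%) and 256 of 576 in replicate 2 (44.4%), and the replicates for 37 of 201 in Chr12 cells (18.4%) and 13 of 82 in euploid cells (15.9%). Between phases within a strain and replicate number, replicate 1 shared it for 57 of 126 members in Chr12 cells (45.2%) and 35 of 48 in euploid cells (72.9%). Replicate 2 did so for 71 of 247 (28.7%) and 87 of 334 (26%). Likeness between strains therefore cannot be told apart from likeness within a replicate number. These shares are descriptions, since each library enters several of them.

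The start codon share, the percent of window reads with codon 1 in the P site, had a median of 5.49% over 583 members with at least 200 window reads, close to the 5% of an even spread over 20 codons. Its 10th and 90th percentiles were 0.304% and 28%, 43 members had no start codon read, and 19 had at least 50%. SLA1 led with 92.5%, and NOP15, a factor of 60S assembly, followed with 86.7%. ERG25, a sterol oxidase of ergosterol synthesis, held the most start codon reads of any gene, with 686 of 727 and 479 of 611 in Chr12 day 4 cells, 4 of 4 and 1474 of 1776 in euploid day 4 cells, 1133 of 1310 and 978 of 1129 in Chr12 log-phase cells, and 1131 of 1307 and 506 of 628 in euploid log-phase cells. All 8 libraries of ERG25 were above 78%.

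Other genes led by their start codon were GRS1, the glycyl-tRNA synthetase, with 75.3%, the purine gene ADE16 with 77.4%, the coronin gene CRN1 with 78.5%, and the ribosomal protein genes RPS21A, RPS21B, RPS19A and RPS19B with 77.6%, 76.1%, 74.5% and 67.4%. The rows of those 4 ribosomal protein genes were not of whole codons, so their windows may not be wholly coding. The study left genes with introns out of its own profiling, and introns were not looked up here. ISD11, QCR7 and KGD4, whose products work in mitochondria, had 59.9%, 58.3% and 52.7%.

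At day 4 the start codon held a larger part of the pooled window reads in every library than in log phase. Pooled over the 361 genes with at least 50 reads in every library, the start codon share was 7.8% and 11.8% in Chr12 day 4 cells, 6.09% and 8.12% in euploid day 4 cells, 2.22% and 2.14% in Chr12 log-phase cells, and 2.26% and 2.04% in euploid log-phase cells. The 4 day 4 libraries averaged 8.45% ± 2.40 and the 4 log-phase libraries 2.17% ± 0.0975 (SD, n = 4 each), a difference of 6.29 percentage points. The exact two-sided permutation test gave p = 0.0286, the smallest that 70 arrangements of 8 libraries allow, and 0.171 after Benjamini-Hochberg adjustment over 6 library-level tests. Within a strain and replicate number the difference was 5.58 and 9.65 points in Chr12 cells and 3.83 and 6.08 in euploid cells. When at most 1 read was counted per position, the difference was 1.16 points (exact p = 0.0857), and with each gene weighted equally it was 1.83 points (exact p = 0.371), with groups that overlapped. RPL41A and RPL41B, which took a larger part of window reads in log phase than at day 4, had few start codon reads. These were 54 of 45093 and 55 of 48988 window reads in the first euploid log-phase library. The pooled start codon share without these 2 genes was not calculated.

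Between strains the start codon share did not separate. Chr12 libraries averaged 5.99% ± 4.69 and euploid libraries 4.63% ± 2.98 (SD, n = 4 each), a difference of 1.36 points (exact permutation test within phase, two-sided p = 0.5, adjusted p = 0.914). The difference was 1.71 and 3.67 points at day 4 and -0.0466 and 0.102 points in log phase. Without the second Chr12 day 4 library it was -0.576 points, but day 4 then weighed less in the Chr12 mean than in the euploid mean. That sign therefore mixes phase with strain. At day 4 the remaining Chr12 value, 7.8%, lay between the euploid values of 6.09% and 8.12%.

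For the window as a whole, differences of the median gene between phases and strains lay within the spread between replicates, while the pooled shares of the phases did not overlap. The median window share over the 361 genes was 3.23% and 1.49% in Chr12 day 4 cells, 2.15% and 1.87% in euploid day 4 cells, 2.64% and 1.58% in Chr12 log-phase cells, and 2.57% and 1.62% in euploid log-phase cells. Day 4 libraries averaged 2.18% ± 0.745 and log-phase libraries 2.10% ± 0.581, a difference of 0.0822 points (exact permutation p = 0.914, two-sided, n = 4 each). Chr12 libraries averaged 2.23% ± 0.842 and euploid libraries 2.05% ± 0.410, a difference of 0.180 points (exact permutation p = 0.778). The median density ratio over 320 genes was 0.881 and 0.398 in Chr12 day 4 cells, 0.495 and 0.503 in euploid day 4 cells, 0.652 and 0.423 in Chr12 log-phase cells, and 0.685 and 0.401 in euploid log-phase cells. Its differences were 0.0292 between phases and 0.0677 between strains (exact permutation p = 0.829 and 0.778, two-sided, n = 4 each). Adjusted p was 0.914 in all 4 tests. Replicate 1 was above replicate 2 in all 4 groups for the window share and in 3 of 4 for the density ratio, and without the first Chr12 day 4 library all 4 of these differences were below 0.

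Pooled over the same 361 genes, the window share was 9.91% and 5.09% in Chr12 day 4 cells, 7.66% and 5.74% in euploid day 4 cells, 12.5% and 9.95% in Chr12 log-phase cells, and 15.1% and 11.2% in euploid log-phase cells. Every day 4 library was below every log-phase library. Day 4 libraries averaged 7.10% ± 2.17 and log-phase libraries 12.2% ± 2.19 (SD, n = 4 each), a difference of -5.09 points (exact two-sided permutation p = 0.0286, adjusted p = 0.171). Without RPL41A and RPL41B, a choice made after seeing the data, the difference was -1 point (exact p = 0.371) and the phases overlapped, at 3.6% to 7.55% at day 4 and 4.94% to 7.46% in log phase.

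**Figure D3:**
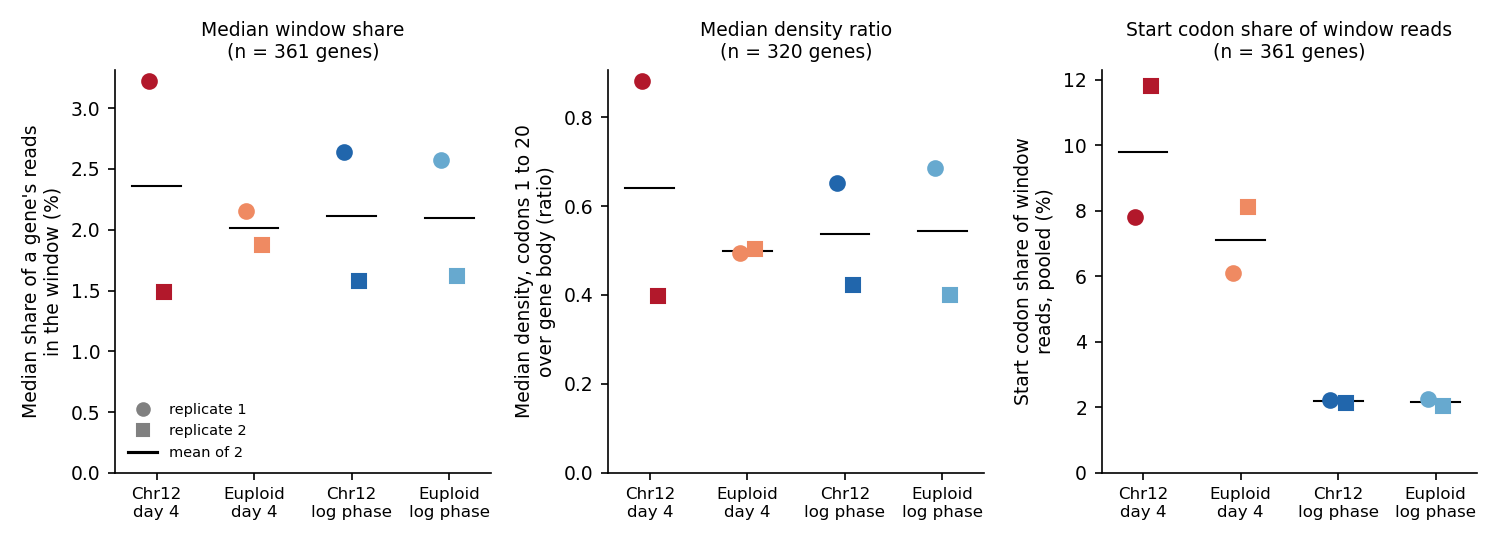
Median window share (361 genes), median density ratio (320 genes) and pooled start codon share of window reads (361 genes) in each of the 8 libraries, with bars at the mean of 2. The 4 day 4 libraries lie between 6.09% and 11.8% for the start codon share, above the log-phase libraries at 2.04% to 2.26%, while the groups overlap in both other panels.

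Gene by gene, the window share was tested at day 4 over log phase with edgeR's quasi-likelihood test of window against other reads, and the log2 change is that of the window-to-rest ratio. With both strains averaged, a contrast added after the data had been seen, 29 of 3923 rows passed FDR 0.05 (0.739%), of which 8 were higher (0.204%) and 21 lower (0.535%) at day 4. All 29 were members, and 27 had 1 sign in all 4 differences within strain and replicate number, with a small constant added to each count. A pair with no window read in either library thus took its sign from its other reads alone, as happened in RPL37B, RPS30A and ATG26. The median log2 change over all rows tested was -0.39. DESeq2 called 21 rows. With the replicate number as a block, by which the study paired its strain comparisons, 207 rows passed, the same 29 among them. Leaving out the first Chr12 day 4 library gave 125 calls, the first euploid day 4 library 61, the second euploid log-phase library 13, the second Chr12 log-phase library 8 and the second euploid day 4 library 2. With at most 1 read counted per position, 3 rows passed, 2 of them among the 29. Of 327 tested rows with at least 50 reads in every library, every day 4 library was above every log-phase library in 20 (6.12%) and below in 27 (8.26%).

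YHR020W, the cytosolic prolyl-tRNA synthetase, fell at day 4, with window shares of 0.634% and 1.88% in Chr12 day 4 cells, 0.283% and 2.41% in euploid day 4 cells, 27.9% and 13.2% in Chr12 log-phase cells, and 33.5% and 10.3% in euploid log-phase cells. All day 4 values were below all log-phase values, and the log2 change was -4.38 ± 0.84 (SE, FDR = 0.00211). In log phase most of its window reads were at codons 1 to 3, with 519 reads at codon 2 over the 4 libraries. CDC60, the leucyl-tRNA synthetase, also fell and had no window read at day 4 among 2664 reads, against 75 of 5616 in log phase, at least 11.9-fold lower (FDR = 0.0130) with 3 reads taken as the floor over the 4 day 4 libraries. Bounds and intervals of this kind cover counting error only.

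Among the other genes that fell, POL3, the catalytic subunit of DNA polymerase delta, had window reads of 1 of 41 and 0 of 142 in Chr12 day 4 cells, 0 of 100 and 0 of 395 in euploid day 4 cells, 21 of 398 and 83 of 183 in Chr12 log-phase cells, and 42 of 562 and 68 of 156 in euploid log-phase cells, 112-fold lower at day 4 (95% counting interval 19.8 to 4430, FDR = 0.00378). Its day 4 shares were all below its log-phase shares. PAN6, pantothenate synthase, had 0 of 56 reads there at day 4 and 217 of 496 in log phase, at least 8.17-fold lower (FDR = 0.0192). BUD23, which methylates 18S rRNA, had 0 of 615 at day 4 and 51 of 872 in log phase, at least 12-fold lower (FDR = 0.0227). The log2 change of BUD23 ranged from -6.44 to -2.13 over the alternative settings. ERG8, phosphomevalonate kinase, had 3 of 496 at day 4 and 201 of 1102 in log phase, and the ceramide synthase LAC1 51 of 1084 and 141 of 351. GUT2, a mitochondrial glycerol-3-phosphate dehydrogenase, had 67 of 5952 at day 4 and 30 of 143 in log phase, so its window reads were more and its share smaller at day 4.

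ATG5 fell at day 4. Its window reads were 39 of 88 and 1 of 96 in Chr12 day 4 cells, 96 of 116 and 1 of 74 in euploid day 4 cells, 619 of 662 and 75 of 80 in Chr12 log-phase cells, and 276 of 296 and 66 of 73 in euploid log-phase cells (log2 change -5.51 ± 1.20, SE, FDR = 0.00726), and the second day 4 replicate of each strain was the low one. In ATG38, a subunit of the autophagy lipid kinase complex, codon 3 held 217 of 229 log-phase window reads, and window reads were 2 of 23 and 3 of 106 in Chr12 day 4 cells, 9 of 14 and 2 of 83 in euploid day 4 cells, 69 of 85 and 58 of 68 in Chr12 log-phase cells, and 22 of 29 and 80 of 90 in euploid log-phase cells (FDR = 0.00378). The row of ATG38 was not of whole codons. RRT6, a little-studied gene, had 325 of 334 log-phase window reads at codon 16. Its window reads were 2 of 375 and 2 of 199 in Chr12 day 4 cells, 48 of 80 and 1 of 338 in euploid day 4 cells, 146 of 156 and 7 of 14 in Chr12 log-phase cells, and 167 of 175 and 14 of 32 in euploid log-phase cells (log2 change -7.08 ± 1.31, SE, FDR = 0.00211). The first euploid day 4 library lay within the log-phase range, and the other 3 day 4 libraries lay below it. ATG26, a sterol glucosyltransferase, also fell, with 6 of 1985 reads at day 4 and 13 of 266 in log phase (FDR = 0.0475).

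Of the 21 genes that fell, 11 had over 50% of their log-phase window reads in 1 codon. So had 254 of 1600 tested rows with at least 20 log-phase window reads (15.9%). Of the 11, PSK2 with 10 such reads and COX4 with 19 did not meet that minimum. SPA2, a scaffold of the polarisome, was led by the start codon, with 144 of 157 log-phase window reads there. The zinc-responsive activator ZAP1 had 60 of 62 at codon 17. The others were the splicing gene PRP31, the vesicle tethering gene SEC39, the mRNA export gene THO2, the kinase gene PSK2, PBN1 and HUT1 of the endoplasmic reticulum, and COX4. COX4, a cytochrome oxidase subunit, had 0 of 5333 reads in the window at day 4 and 19 of 991 in log phase, and its row had a long uncovered stretch.

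Among the genes that rose at day 4, HSP82, the Hsp90 chaperone induced by stress, had window shares of 3.73% and 4.7% in Chr12 day 4 cells, 1.14% and 2.38% in euploid day 4 cells, 0.423% and 0.109% in Chr12 log-phase cells, and 0.236% and 0.21% in euploid log-phase cells. Every day 4 library was above every log-phase library, and the log2 change was 3.62 ± 0.81 (SE, FDR = 0.00940). It was 0.77 with at most 1 read counted per position (FDR = 0.563) and 2.15 without the highest position of each part (FDR = 0.228), and it lost the call without the second Chr12 log-phase, second euploid day 4 or second euploid log-phase library (highest FDR = 0.146). Codon 19 held 200 of its 247 day 4 window reads, and none of those reads came from the first euploid day 4 library. HXT6, a high-affinity glucose transporter, had 1087 of 19462 reads in the window at day 4 and 1 of 474 in log phase, 26.5-fold higher (95% counting interval 4.74 to 1050, FDR = 0.0153). Reads of HXT6 and its near-identical neighbour HXT7 could be split between their rows. NQM1, a transaldolase paralog, had 287 of 16610 at day 4 and 1 of 1584 in log phase, 27.4-fold higher (interval 4.87 to 1080, FDR = 0.0256). Of its 287 reads, 234 were in the second euploid day 4 library. Its log2 change ranged from 0.52 to 5.27 over the alternative settings, with a highest FDR of 0.73.

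Ribosomal protein genes made up 4 of the 8 that rose. RPL36B had window shares of 16.1% and 5.62% in Chr12 day 4 cells, 7.5% and 3.29% in euploid day 4 cells, 0.69% and 0.51% in Chr12 log-phase cells, and 0.43% and 0.842% in euploid log-phase cells (log2 change 3.53 ± 0.77, SE, FDR = 0.00726), with the start codon as its highest codon in both phases. RPL37A, RPL37B and RPS30A had 20, 15 and 15 window reads at day 4 and 2, 1 and 0 in log phase, of 1886, 1159 and 3899 row reads at day 4 and 8061, 6353 and 10437 in log phase. None of these 4 rows had an intact gene model. PTK1, a kinase gene, had 12 of 2534 reads in the window at day 4 and 0 of 19222 in log phase, at least 30.3-fold higher (FDR = 0.00211). Its row held 9260 and 9848 reads in the second log-phase replicates of Chr12 and euploid cells, against 72 and 42 in the first, so 1 replicate supplied nearly all of its log-phase reads.

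**Figure D4:**
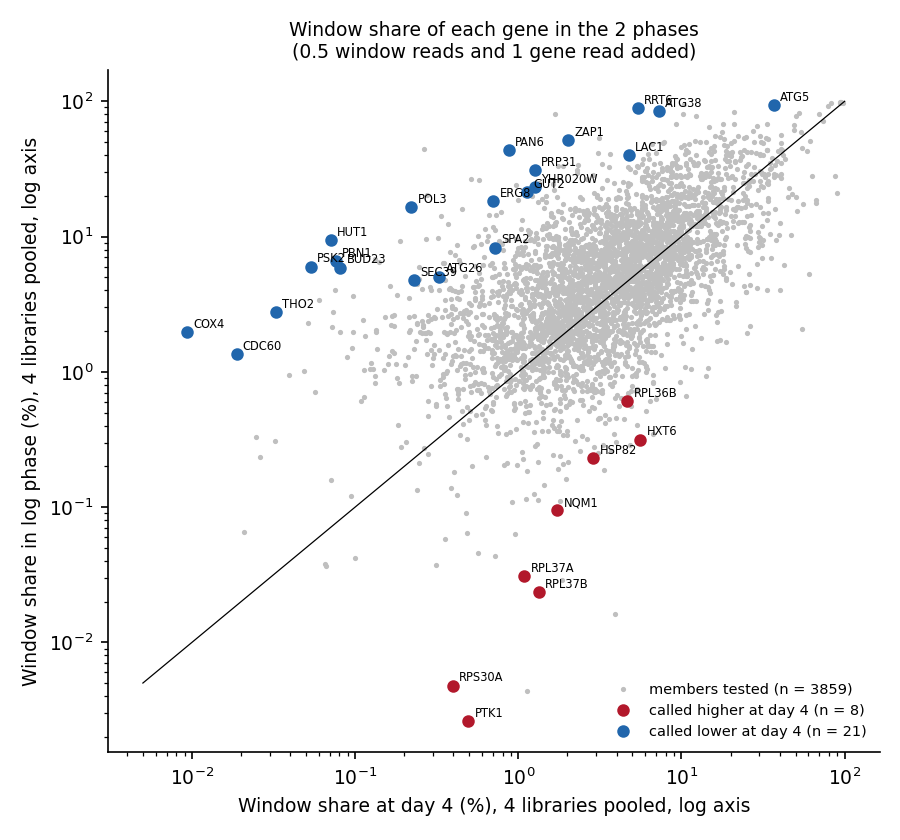
Window share at day 4 (horizontal) against log phase (vertical) for 3859 members tested, 4 libraries pooled per phase, both axes on a log scale, with 0.5 window reads and 1 gene read added. Blue points are the 21 genes that fell at day 4 and red points the 8 that rose, and the line marks equal shares.

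Within each strain alone, few genes passed without the replicate number as a block. With it, 47 rows passed in Chr12 cells and 45 in euploid cells. Without it, in Chr12 cells, 2 of 3923 rows passed FDR 0.05 (0.0510%), RRT6 lower (0.0255% of rows, log2 change -9.20 ± 1.80, SE, FDR = 0.00819) and PTK1 higher (0.0255%, FDR = 0.0405), with 277 rows at an unadjusted p under 0.05 (7.06%) and 1 call by DESeq2. Leaving out the first Chr12 day 4 library gave 10 calls, the first euploid day 4 library 5, the second Chr12 day 4 or the first euploid log-phase library 4, and the second log-phase library of either strain 1. In euploid cells edgeR and DESeq2 called 0 rows, with 237 at an unadjusted p under 0.05 by edgeR (6.04%) and a lowest FDR of 0.0998, shared by POL3, RPL20A and CSI1. Euploid calls numbered 7 without the first euploid day 4 library, 5 without either Chr12 day 4 library, 4 without the first euploid log-phase library and 3 without either Chr12 log-phase library. RPL20A, a 60S protein gene, had 19 of 916 reads in the window of the second euploid day 4 library and none in any other library. The strain difference in the day 4 change was past FDR 0.05 for 0 rows by either tool, with 83 at an unadjusted p under 0.05 (2.12%).

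Calls in the gene groups, for day 4 over log phase in both strains, are set against 0.739% of all rows tested. Counts were 0 of 45 signal peptide genes, 1 of 59 presequence genes (COX4, lower), 1 of 31 transporters (HXT6, higher), 0 of 42 translation factors, 0 of 21 glycolytic genes, 1 of 29 stress genes (HSP82, higher) and 4 of 103 ribosomal protein genes (3.88%), all higher and none with an intact gene model. On chromosome XII, 6 of 357 passed (1.68%), with 2 higher and 4 lower. Groups with 1 call had 29 to 59 rows tested. The median log2 change was 0.62 for the stress genes, 0.29 for the glycolytic genes and 0.24 for the ribosomal protein genes, against -0.80 for the transporters and -0.39 for all rows. Rows entered on window reads summed over both phases. Some stress genes passed almost wholly through day 4, as with HSP12 (2 to 7 window reads per log-phase library) and GRE1 (0 to 3). The filter can therefore set part of these medians, which are given as a description.

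Where the reads sat inside the window changed with phase in a few genes. For reads at codon 1 against codons 2 to 20, 7 of 878 rows passed FDR 0.05 at day 4 over log phase (0.797%), 6 higher (0.683%) and 1 lower (0.114%). DESeq2 called 5, and 25 passed with the replicate number as a block, 6 of the 7 among them. The glycolytic enzyme ENO1, an enolase, changed most. Its start codon reads of window reads were 127 of 283 and 174 of 422 in Chr12 day 4 cells, 4 of 31 and 378 of 1558 in euploid day 4 cells, 1 of 2094 and 0 of 445 in Chr12 log-phase cells, and 2 of 1541 and 0 of 287 in euploid log-phase cells, 433-fold higher at day 4 (95% counting interval 148 to 2110, FDR = 6.50e-07). With at most 1 read counted per position its log2 change was 1.65 and did not pass (FDR = 0.982), against 9.13 with all reads. In log phase ENO1 had its most window reads at codon 7, with 1529 over the 4 libraries, of which 868 and 2 were in Chr12 cells and 652 and 7 in euploid cells. The paralog ENO2 is nearly identical, and the assignment of reads between the 2 is uncertain.

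TDH1, a glyceraldehyde-3-phosphate dehydrogenase of slow-growing cells, had 1513 of 6340 window reads at the start codon at day 4 and 0 of 540 in log phase, at least 43-fold higher (FDR = 0.0126). Its 2 paralogs differ little in sequence, so its reads carry the same doubt. CKI1, choline kinase, had 17 of 26 at day 4 and 1 of 65 in log phase, 42.5-fold higher (95% counting interval 6.66 to 1780, FDR = 0.0277). HSP60, the mitochondrial chaperonin, the glucose transporter HXT2 and the 60S assembly factor NOP16 rose too, with 25 of 64, 47 of 63 and 13 of 75 at day 4, against 1 of 372, 20 of 486 and 0 of 213 in log phase. All day 4 start codon reads of CKI1, HSP60 and HXT2 came from replicate 2. In replicate 1 at day 4, HSP60 had 0 of 19 in Chr12 cells and 0 of 2 in euploid cells. CKI1 and HXT2 had no window read there. FOX2, the multifunctional enzyme of peroxisomal fatty acid oxidation, fell, with 5 of 314 at day 4 and 14 of 16 in log phase (FDR = 0.0277). Those 14 reads all came from replicate 1, with 7 of 8 in Chr12 cells and 7 of 7 in euploid cells. Replicate 2 in log phase had 0 of 1 and 0 of 0. The log2 change of FOX2 ranged from -10.3 to -3.17 over the alternative settings. Leaving out the second euploid day 4 library or any 1 of the 4 log-phase libraries left 1 call, leaving out the second Chr12 day 4 library left 2, and without the first Chr12 day 4 library there were 15.

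**Figure D5:**
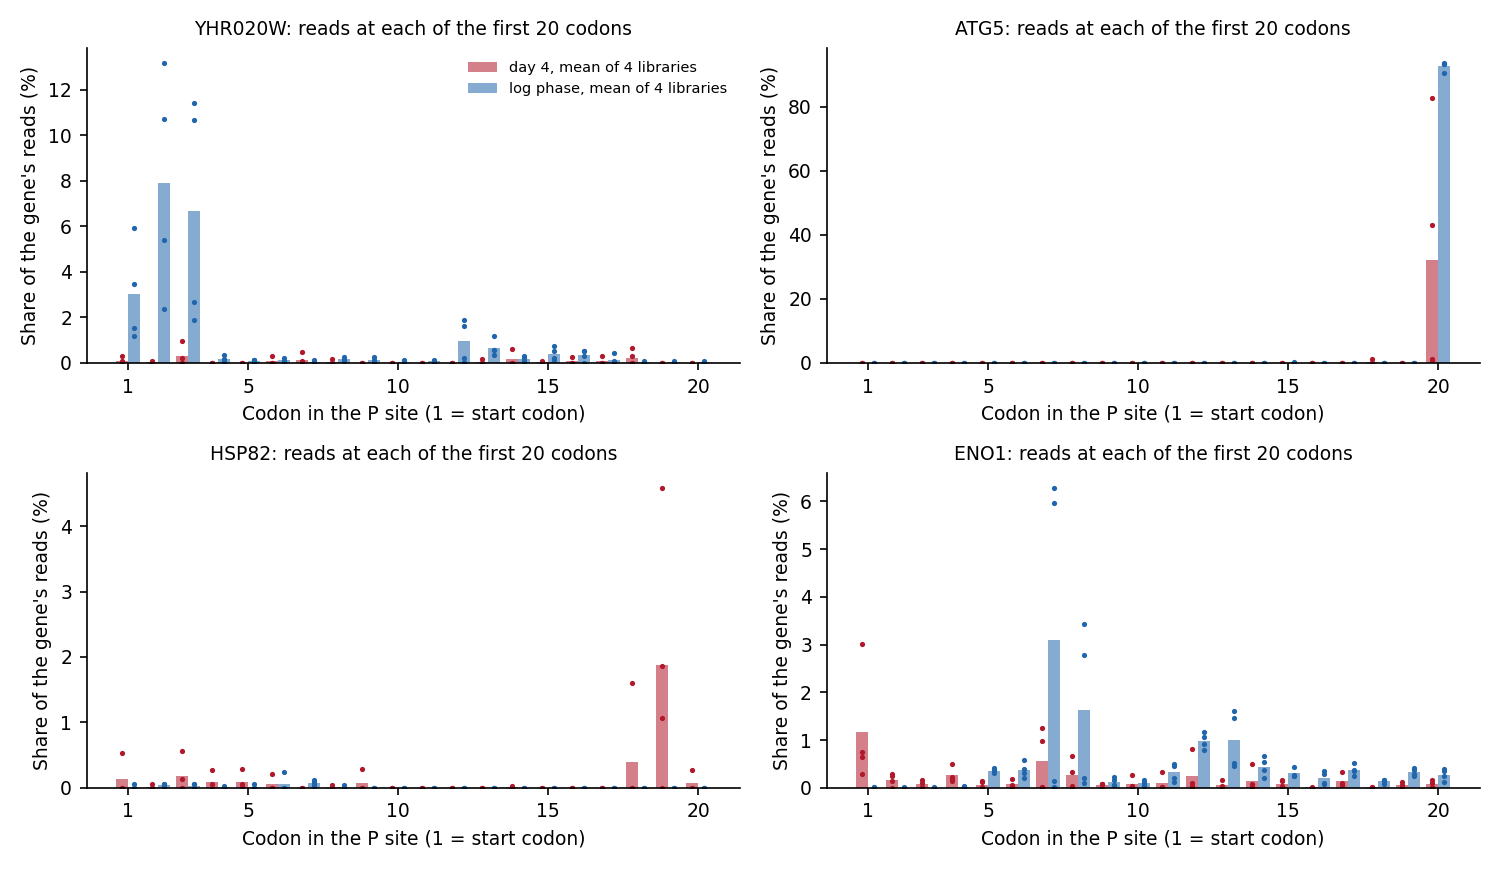
Reads at each of the first 20 codons as a percent of the gene's reads, for YHR020W, ATG5, HSP82 and ENO1, with day 4 bars left of log-phase bars. Bars are means of 4 libraries and points are single libraries. Log-phase reads of YHR020W lie mostly at codons 1 to 3, those of ATG5 at codon 20, the day 4 reads of HSP82 mostly at codon 19, and ENO1 has its highest day 4 bar at codon 1.

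Start codon shares could be compared library by library in 42 genes with at least 10 window reads in every library. In 6 of them (14.3%) every day 4 library was above every log-phase library, and in 1 (2.38%) every day 4 library was below. ENO1 was one of the 6. The wall protein gene SED1 had start codon reads of 44 of 256 and 525 of 1078 in Chr12 day 4 cells, 2 of 18 and 607 of 1749 in euploid day 4 cells, 7 of 101 and 2 of 41 in Chr12 log-phase cells, and 17 of 158 and 0 of 38 in euploid log-phase cells, out of its window reads. CCW12, a mannoprotein of the wall, had 16 of 66 and 62 of 200 in Chr12 day 4 cells, 3 of 34 and 13 of 70 in euploid day 4 cells, 249 of 6096 and 57 of 1553 in Chr12 log-phase cells, and 107 of 4435 and 15 of 913 in euploid log-phase cells. The others were the histone gene HTB1, the eisosome gene PIL1 and PLN1, a perilipin of lipid droplets. The gene that went the other way was YDR154C, all of whose window reads were also counted in the overlapping row of YDR155C.

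Some genes with abundant start codon reads at day 4 had too few log-phase window reads to compare. ADH2, the alcohol dehydrogenase that consumes ethanol, had start codon reads of 13 of 77 and 200 of 380 in Chr12 day 4 cells, 1 of 8 and 1659 of 3583 in euploid day 4 cells, 0 of 3 and 0 of 0 in Chr12 log-phase cells, and 0 of 1 and 0 of 2 in euploid log-phase cells, out of its window reads. TMA10, a ribosome-associated protein, had 80 of 427 and 1519 of 4450 in Chr12 day 4 cells and 3 of 90 and 891 of 4687 in euploid day 4 cells. HSP12 differed by replicate, with 787 of 838 and 39 of 1065 in Chr12 day 4 cells, against 570 of 875 and 432 of 11936 in euploid day 4 cells. Replicate 1 of each strain had most of its HSP12 window reads at codon 1, and replicate 2 had under 4% there.

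No gene passed the test between Chr12 and euploid cells without the replicate number as a block. The study paired its strain comparisons by replicate, and the block lowered the estimated spread (common dispersion) of the window test from 0.269 to 0.115. The counts that follow ignore this pairing, and counts between strains with the block are not given here. In log phase 0 of 3923 rows passed FDR 0.05 (0%) by edgeR or by DESeq2, with 25 at an unadjusted p under 0.05 (0.637%), and the median log2 change was -0.06. RPL8A, a 60S protein gene, was among the 10 lowest p-values, with 9 of 2362 and 16 of 3225 in Chr12 log-phase cells and 78 of 3795 and 103 of 3655 in euploid log-phase cells in the window (FDR = 1). Both Chr12 values were below both euploid values. At day 4, 0 rows passed by either tool (0%), with 164 at an unadjusted p under 0.05 (4.18%) and a median log2 change of -0.12.

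The lowest p-values at day 4 belonged to genes with few reads. SAP190, which works with the phosphatase Sit4, had 5 of 46 and 11 of 182 in Chr12 day 4 cells and 0 of 10 and 0 of 540 in euploid day 4 cells. KEX2, the Golgi protease that cleaves the alpha-factor precursor, had 0 of 28 and 0 of 112 in Chr12 day 4 cells and 4 of 16 and 27 of 307 in euploid day 4 cells, and CBF5, the pseudouridine synthase of box H/ACA particles, 0 of 160 and 1 of 694 in Chr12 day 4 cells and 0 of 42 and 30 of 605 in euploid day 4 cells. All 3 had FDR = 1. For the start codon against codons 2 to 20, 0 of 878 rows passed between strains over both phases (0%) by edgeR or DESeq2, with 9 at an unadjusted p under 0.05 (1.03%).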

How the data were processed

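The counts are those deposited by the authors, who trimmed adapters, discarded non-coding RNA reads, mapped what remained to a YPS1009 reference and scored each read's 5′ end per nucleotide. No removal of duplicate reads is described, so a pile of reads at 1 nucleotide may be copies. Library totals ranged from 211302 to 6215498 reads. Window and remaining reads of each row with at least 10 of each were tested with edgeR 4.0.16 (quasi-likelihood, 8 library terms, R 4.3.3), with Benjamini-Hochberg adjustment over all rows tested. DESeq2 1.42.0 was an alternative. Library-level measures had exact permutation tests (Python 3.11.15, numpy 2.4.6). The labels do not say that replicates were separate cultures, so p-values measure the spread between these samples, which may be technical. Scripts were tested on simulated data. Names came from a RefSeq table, which matched 5201 members.

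The members, gene lists and tests were chosen with earlier results of these data known. Named genes were up to 5 called genes in each direction by size of change (or the 10 lowest p-values), the extremes of density ratio and codon occupancy, the neighbours of the read limit and the largest members of each list. Other called genes, and those with the most window reads or the highest window or start codon shares, were named after their values were seen. An item that these rules reach is not reported here. Alternatives moved or widened the window, changed the read minimum, the denominator or the read cap per position, left out each library, or used the second table deposited for each replicate 1 sample (4 tables). No sequence was used here.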

Additional observations from a re-analysis of the deposited data

How the results depend on the processing

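Counts of genes past FDR 0.05 moved with the processing, and the cause was not tested. For day 4 over log phase in Chr12 cells, where 2 genes passed, 1 passed with DESeq2, with coding positions only as the denominator, with the window widened by 3 nt upstream and without the start codon, and 0 passed with at least 500 reads in the row, at most 1 read per position, the window moved by 1 nt or the highest position removed. In euploid cells, where 0 passed, 2 passed among intact gene models. Averaged over strains, where 29 passed, there were 3 with at most 1 read per position, 51 with the second tables of replicate 1 and 13 without the highest position. For the start codon, where 7 passed, there were 0, 3 and 4 with at most 1 read per position, the second tables and the window moved by 1 nt. Leaving out each library gave 1 to 10 calls in Chr12 cells, 0 to 7 in euploid cells, 2 to 125 averaged over strains and 1 to 15 for the start codon, each highest count being without the first Chr12 day 4 library except in euploid cells, where it was without the first euploid day 4 library. The strain comparisons stayed at 0 calls in each of these.

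The labels do not say that replicate numbers pair the samples, while the study's own strain comparisons paired them by replicate. With the replicate block, 47 genes passed in Chr12 cells, 45 in euploid cells, 207 averaged over strains (including the same 29) and 25 for the start codon. Deviations of same-numbered samples correlated at 0.577 between the log-phase groups and 0.556 between the day 4 groups, and at 0.113 to 0.208 between phases (361 genes).

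Signs reversed in few single results. The Chr12 day 4 change of YHR020W was 0.16 (log2) with at most 1 read per position, and the Chr12 over euploid differences at day 4 of RPL22B and CBF5 ranged from -0.07 to 9.5 and from -7.91 to 1.93 when each library was left out. Day 4 minus log phase in median window share was -0.475 with at most 1 read per position, -5.09 pooled over genes (exact p = 0.0286, every day 4 library below every log-phase library; -1 with RPL41A and RPL41B left out, exact p = 0.371) and -0.104 with at least 20 reads in every library (-0.265 to 0.314 leaving out libraries), and in density ratio -0.0945, -0.171 and -0.0734 (-0.0748 to 0.0863). Chr12 minus euploid in median window share was -0.00829 with the second tables and -0.550 pooled (-0.151 to 0.428 leaving out libraries). Leaving out libraries gave -0.0298 to 0.131 for its density ratio and -0.576 to 2.64 points for its start codon share. With a library left out, phase was not balanced between the strains, so these ranges mix phase with strain. Depth limited single genes most in the first euploid day 4 library, where 192 members had at least 10 window reads.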
